A study of Rattus norvegicus with 4 samples.

Results

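Rat cytochrome P450 genes of families 1 to 4 were followed in a macrophage line exposed to zinc iron oxide particles. The genes were chosen by name, as every gene probe on the array whose transcript accession belongs to a rat RefSeq symbol of the form Cyp, a family number from 1 to 4, a subfamily letter and a member number. The RefSeq table holds 78 such symbols. Of these, 52 had a probe here, read by 67 probes, among 16526 genes with a symbol and a value on every array. The other 26 symbols, 15 of them protein coding and 11 pseudogenes, were not analysed here. Family 1 had 3 measured genes, family 2 had 30, family 3 had 5 and family 4 had 14.

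NR8383 is a continuous macrophage line from rat lung lavage, and a model of the alveolar macrophage grown without its lung. The labels give 20 passages. The exposure was to zinc iron oxide, a particle labelled NRCWE021 with the formula ZnFe2O4, at 17 µg/mL and for 4 h, and RNA of 4 biological replicates was hybridised, 1 per array, to 1-colour arrays on 1 slide. Arrays of unexposed cells were not analysed here. The values therefore give which P450 genes were detected in exposed cells and with what spread between 4 samples, and no gene is said to respond to the particle. RNA came from whole cultures, so a gene expressed by few cells and a gene dim in every cell cannot be told apart.

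Cytochromes P450 are haem enzymes that insert an oxygen atom into a substrate, mostly at the membrane of the endoplasmic reticulum, with electrons passed on by cytochrome P450 reductase (Por). Enzymes of families 1 to 3 oxidise drugs, steroids and other foreign compounds and are most abundant in liver. Those of family 4 hydroxylate the end of fatty acid chains, including arachidonic acid and leukotrienes. In lung, P450 enzymes are known above all from club and alveolar epithelial cells, and family 1 is known as the target of the aryl hydrocarbon receptor (Ahr), which senses polycyclic aromatic compounds.

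A probe was called detected when the scanner software marked its spot as well above background, and a gene when any of its probes was. The 4 arrays differed in this respect over all spots. The flag was set on 47.0%, 89.5%, 70.5% and 41.6% of gene spots on replicates 1 to 4. Negative control spots, of which each array has 308, had median signals of 3.45, 23.0, 12.9 and 3.34 intensity units, and 0, 4, 0 and 0 of them were marked. The 10 spike-in RNAs are added to the sample and do not come from the cells. The dimmest, by mean log2 signal on replicates 1 and 4, was marked on 0, 35, 34 and 0 of its 35 spots. Its low reading on replicates 1 and 4 follows in part from that choice. By the flag and the negative control signals, replicates 1 and 4 resembled each other and stood apart from replicates 2 and 3. Every count below is given for replicates 1 and 4 beside all 4 arrays. Of the macrophage markers measured, 8 of 10 were detected on replicates 1 and 4, among them Cd68, Lyz2 and Spi1, while Adgre1 and Marco were not. Of all genes, 46.0% were detected there.

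Few P450 genes were detected on replicates 1 and 4. There were 6 of 52 (11.5%), Cyp2c7, Cyp2d1, Cyp2d5, Cyp4a8, Cyp4b1 and Cyp4f6, where 46.0% of all genes were. The same 6 genes were the ones detected on all 4 replicates, where 42.5% of all genes were. A further 20 genes (38.5%) were detected on replicates 2 and 3 and on neither other array, against 27.8% of all genes. On replicate 2 alone 16 genes (30.8%) were detected, against 12.8% of all genes, and 7 genes (13.5%) were detected on no replicate, against 6.37%. The remaining 3, Cyp2d4, Cyp2s1 and Cyp4f17, were detected on replicates 1 and 2.

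By array, replicate 1 had 9 P450 genes detected (17.3%), against 52.3% of all genes. Replicate 2 had 45 (86.5%), against 91.6%, and replicate 3 had 26 (50.0%), against 75.5%. Replicate 4 had 6 (11.5%), against 46.3%. The P450 genes lay below the share of all genes on each of the 4 arrays, by the smallest margin on replicate 2. By family, the genes detected on replicates 1 and 4 were 0 of 3 in family 1, 3 of 30 in family 2, 0 of 5 in family 3 and 3 of 14 in family 4. No P450 spot was saturated and none was marked as an outlier.

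**Figure D1:**
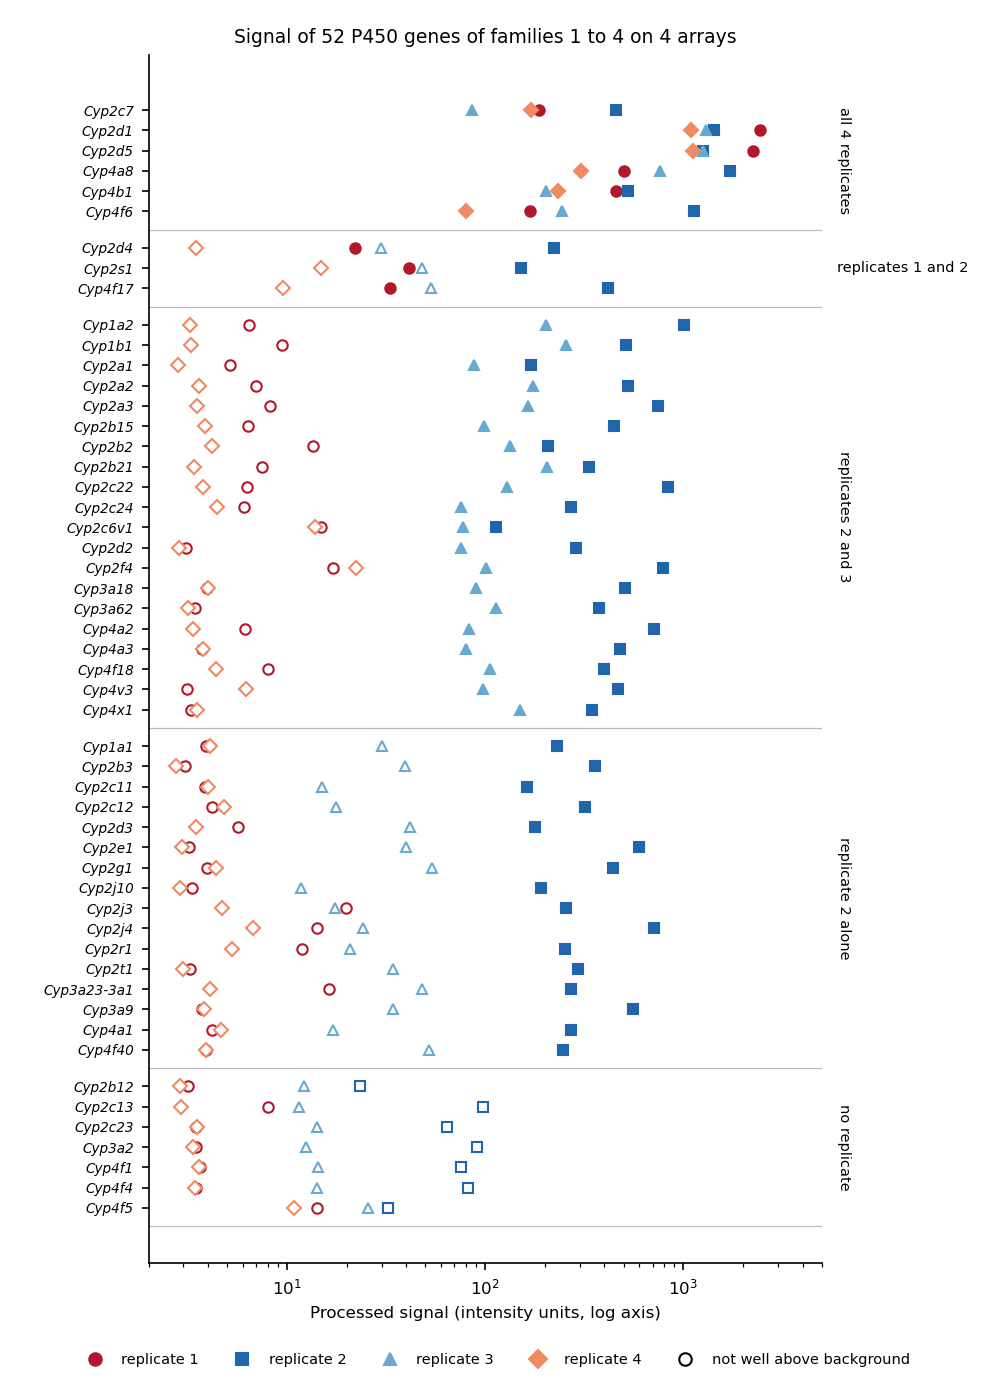
Processed signal (intensity units, log axis) of the brightest probe (by mean log2 signal) of each of 52 P450 genes on replicates 1 to 4, grouped by the arrays on which the gene was detected, with filled symbols where that gene was well above background. The 6 genes in the top group have filled symbols on all 4 arrays, while the other genes lie between 2.77 and 41.2 on replicates 1 and 4 and each is higher on replicate 2.

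Cyp2d1 and Cyp2d5 belong to the rat debrisoquine hydroxylase group, whose human counterpart oxidises many drugs that act on heart and brain. The processed signal of Cyp2d1 on replicates 1 to 4 was 2427, 1423, 1298 and 1101 intensity units. That of Cyp2d5 was 2250, 1263, 1254 and 1121 in the same order. Both were highest on replicate 1, as were 3608 of the 9278 named probes detected on replicates 1 and 4. Of the 11 P450 probes detected there 3 were, while 62 of all 67 P450 probes were brightest on replicate 2. The transcripts of Cyp2d1 and Cyp2d5 are close copies, so a probe for one may have read the other. Whether 1 gene or both gave the signal is uncertain. Relative to the 75th percentile of each array, the log2 level was 3.17 ± 1.91 for Cyp2d1 and 3.09 ± 1.96 for Cyp2d5 (mean ± SD, n = 4). These SDs depended on the scaling, since relative to the 3 brightest spike-in probes they were 0.32 and 0.26.

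The other genes of the Cyp2d group did not share this pattern. Cyp2d3 gave 5.63, 178.4, 41.8 and 3.48 on replicates 1 to 4 and was detected on replicate 2 alone. Cyp2d4, the form best known from brain, gave 22.0, 221.8, 29.7 and 3.46 and was detected on replicates 1 and 2. Cyp2d2 gave 3.09, 287.9, 75.4 and 2.85 and was detected on replicates 2 and 3. In the RefSeq order along chromosome 7 the group runs Cyp2d4, Cyp2d5, Cyp2d1, Cyp2d3 and Cyp2d2, so the 2 genes detected on every array are direct neighbours among the measured ones.

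The stretch upstream of Cyp2d1 and Cyp2d5 is shown with that of Cyp2d3, because the 3 sequences are nearly the same while the arrays on which the genes were detected were not. The 211 bases come from RefSeq (GRCr8, minus strand, written 5′ to 3′ along the gene) and lie at chr7:115793435-115793645 for Cyp2d1, chr7:115784527-115784737 for Cyp2d5 and chr7:115802143-115802353 for Cyp2d3. They run from 215 to 5 bases before the annotated start of Cyp2d1, from 250 to 40 before that of Cyp2d5 and from 211 to 1 before that of Cyp2d3. Capitals mark the 19 positions that are not the same in all 3.
Cyp2d1: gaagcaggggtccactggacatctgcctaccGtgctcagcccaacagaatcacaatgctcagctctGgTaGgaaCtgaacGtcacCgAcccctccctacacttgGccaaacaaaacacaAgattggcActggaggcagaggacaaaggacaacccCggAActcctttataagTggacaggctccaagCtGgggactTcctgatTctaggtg
Cyp2d5: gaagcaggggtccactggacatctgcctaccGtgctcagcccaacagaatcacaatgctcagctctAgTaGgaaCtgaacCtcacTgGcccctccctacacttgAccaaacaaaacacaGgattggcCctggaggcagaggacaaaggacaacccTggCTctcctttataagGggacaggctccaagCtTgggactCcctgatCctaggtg
Cyp2d3: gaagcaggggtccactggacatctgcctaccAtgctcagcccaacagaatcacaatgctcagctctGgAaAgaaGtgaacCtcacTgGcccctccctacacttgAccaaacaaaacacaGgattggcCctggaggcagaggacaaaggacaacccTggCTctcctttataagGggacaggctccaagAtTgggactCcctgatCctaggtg
Of the 211 positions, 192 (91.0%) were the same in all 3 genes. Cyp2d5 and Cyp2d3, which differ in detection, were the closest pair at 97.2% identity, while Cyp2d1 and Cyp2d5, which share it, were at 93.4%. Cyp2d1 and Cyp2d3 were at 91.5%. These 3 genes were set side by side after their values were seen, and the letters are a description of the sequence alone.

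Cyp4b1 activates furans and other lung toxins and is known from the airway epithelium. Its 2 probes were both detected on all 4 arrays. The one with the higher mean log2 signal, taken as the brighter, gave 457.8, 523.6, 202.4 and 234.4 on replicates 1 to 4, and the other gave 83.4, 1423, 299.9 and 46.4. Replicate 2 was highest for both, but it exceeded replicate 1 by a ratio of 1.14 for the first probe and 17.1 for the second, so the probes differ in how strongly the arrays separate. The level of the brighter probe was 0.98 ± 1.62 (SD, n = 4), at 2.37 on replicate 1 and 2.37 on replicate 4.

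Cyp4f6 belongs to the group that hydroxylates leukotriene B4, a lipid that attracts neutrophils. Its brighter probe gave 169.3, 1133, 244.9 and 80.0 on replicates 1 to 4, and the other gave 181.6, 521.1, 100.0 and 82.2. Both were above background on every array and highest on replicate 2. The level of the brighter was 0.58 ± 0.36 (SD, n = 4), which became an SD of 1.71 with spike-in scaling, the opposite direction to the Cyp2d genes.

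Cyp4a8, an arachidonic acid hydroxylase known from kidney, was called on all 4 arrays through 1 of its 3 probes. This probe gave 504.7, 1718, 759.3 and 303.3 on replicates 1 to 4, at a level of 2.01 ± 0.78 (SD, n = 4). Another gave 4.30, 488.7, 140.5 and 3.19 and was detected on replicates 2 and 3 alone, and the last gave 3.13, 82.9, 50.2 and 3.03 and was detected nowhere. The probes of Cyp4a8 therefore disagree on replicates 1 and 4, and the mean over all 3 had a level of -1.32.

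Cyp2c7, a steroid- and drug-metabolising enzyme of rat liver, was read by 5 probes, and 4 of them were detected on replicates 1 and 4. The probe with the highest mean log2 signal gave 186.9, 459.4, 85.7 and 170.2 on replicates 1 to 4. The exception gave 10.6, 1013, 294.9 and 8.06 and was detected on replicates 2 and 3 alone. The former had a level of 0.18 ± 1.56 (SD, n = 4). Its replicate 1 minus replicate 4 was -0.84 log2 units with 75th percentile scaling, -0.36 with spike-in scaling and 0.13 in the processed signal itself.

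**Figure D2:**
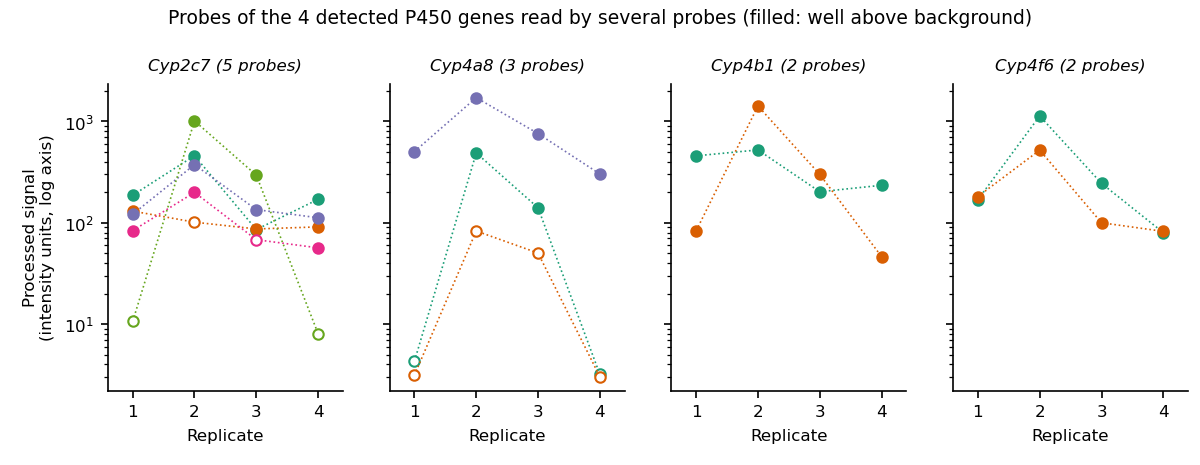
Processed signal (intensity units, log axis) of every probe of Cyp2c7, Cyp4a8, Cyp4b1 and Cyp4f6 on replicates 1 to 4, 1 line per probe and filled where well above background. All probes of Cyp4b1 and Cyp4f6 are filled throughout, while 1 of 5 probes of Cyp2c7 and 2 of 3 of Cyp4a8 fall to between 3.03 and 10.6 on replicates 1 and 4.

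Over these 6 genes the median absolute difference between replicates 1 and 4 was 0.14 log2 units with 75th percentile scaling, from -0.84 to 0.17, and 3 of 6 were higher on replicate 1. The direction depended on the scaling, since 5 of 6 were higher on replicate 1 with spike-in scaling and 6 of 6 in the processed signal itself. Over the 7554 genes whose brightest probe was detected on both arrays the median with 75th percentile scaling was 0.21. With that scaling the spread of the P450 genes between these replicates, by this median, was no wider than that of other detected genes. With spike-in scaling the P450 median was 0.50, and the value over all genes is not given here. Repeated spots of 1 probe within an array had a median SD of 0.09 on replicate 1 and 0.15 on replicate 4.

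Having several probes gives a gene more chances to be called. Of the 42 P450 genes read by 1 probe, 2 (4.76%) were detected on replicates 1 and 4, where 42.4% of all such genes were. Of the 10 with several probes, 4 (40.0%) were, where 58.6% of all such genes were. The probes of 1 gene disagreed on replicate 2 for 7 of these 10 genes and on replicates 1 and 4 for 2, Cyp2c7 and Cyp4a8.

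The 3 genes detected on replicates 1 and 2 gave the lowest signals of the 9 called on replicate 1. Cyp2s1, an enzyme of airway and skin epithelium, gave 41.2, 151.3, 48.0 and 14.9 on replicates 1 to 4. Cyp4f17, a fatty acid hydroxylase, gave 33.0, 418.9, 53.1 and 9.60. On replicate 1 the dimmest P450 probe that was called was that of Cyp2d4 at 22.0, and the brightest that was not was that of Cyp2j3 at 19.8. On replicate 4 the called and uncalled probes were wider apart, at 46.4 for the second Cyp4b1 probe and 22.2 for Cyp2f4.

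Family 1 genes, the classical targets of the aryl hydrocarbon receptor, were undetected on replicates 1 and 4. Cyp1a1, which oxidises polycyclic aromatic hydrocarbons, gave 3.92, 230.0, 30.1 and 4.08 on replicates 1 to 4 and was detected on replicate 2 alone. The brighter probe of Cyp1a2 gave 6.42, 1004, 203.7 and 3.24, and that of Cyp1b1, which also oxidises oestrogens, gave 9.43, 515.7, 256.1 and 3.27. Both of these were detected on replicates 2 and 3. The other probe of Cyp1a2 gave 3.17, 23.5, 12.35 and 3.13 and was detected nowhere. For Cyp1b1 a second probe was detected on replicate 2 alone, and the last, at 3.38, 23.4, 16.6 and 3.12, nowhere. On replicates 1 and 4 the brightest probes of the 3 genes lay between 3.24 and 9.43, where the 95th percentile of negative control spots was 4.16 and 4.61. By these probes Cyp1a1 lay below that percentile on both arrays, and Cyp1a2 and Cyp1b1 lay above it on replicate 1 and below it on replicate 4. The other probes of Cyp1a2 and Cyp1b1 lay below it on both arrays.

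Of the 6 measured enzymes listed as known mainly from liver, Cyp2d1 was detected on replicates 1 and 4 and the other 5 were not. Cyp2e1, which oxidises ethanol, gave 3.20, 595.4, 39.7 and 2.94. Cyp2c11, the main P450 of male rat liver, gave 3.85, 162.3, 15.1 and 4.01, and Cyp4a1, a target of the fatty acid sensor Ppara, gave 4.19, 271.7, 17.1 and 4.65. All 3 were detected on replicate 2 alone. For Cyp3a23-3a1, the steroid-inducible enzyme of the 3A group, the brighter probe gave 16.2, 270.1, 47.8 and 4.09. It was also detected on replicate 2 alone, and the other probe, at 3.26, 45.8, 47.8 and 2.91, nowhere. Cyp3a2 gave 3.48, 91.4, 12.5 and 3.36 and was detected on no array.

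Among enzymes known from airways, Cyp2a3, a coumarin hydroxylase of nose and lung, gave 8.16, 741.9, 165.4 and 3.51. Cyp2f4, which activates naphthalene in club cells, gave 17.0, 792.9, 101.2 and 22.2. Both were detected on replicates 2 and 3, while Cyp4b1, described above, was detected on all arrays. Though not marked on replicates 1 and 4, Cyp2f4 exceeded the dimmest spike-in by 3 SD there, at thresholds of 9.05 and 8.38. It also exceeded the 95th percentile of negative control spots on all 4 arrays.

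The arachidonic acid epoxygenases Cyp2j3 and Cyp2j4 were undetected on replicates 1 and 4 as well. Cyp2j3 gave 19.8, 255.5, 17.4 and 4.71, and Cyp2j4 gave 14.2, 714.9, 24.1 and 6.70. Cyp2r1, which takes the first step in the activation of vitamin D, gave 11.8, 253.4, 20.7 and 5.26. All 3 were detected on replicate 2 alone, and their signals on replicates 1 and 4 were above the 95th percentile of the negative control spots of those arrays. Cyp2b1 and Cyp2u1, which were to be named whatever their values, were not analysed here.

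Of the fatty acid hydroxylases of family 4 other than those detected throughout, Cyp4f18, a leukotriene B4 hydroxylase of myeloid cells, gave 7.98, 398.7, 105.6 and 4.36 on replicates 1 to 4. Cyp4v3 gave 3.12, 470.7, 98.02 and 6.22, and Cyp4x1, known from brain, gave 3.28, 346.1, 149.2 and 3.49. These 3 were detected on replicates 2 and 3. Cyp4f1, Cyp4f4 and Cyp4f5 were detected on no array, and reached 75.3, 81.8 and 109.5 at most on replicate 2, the last through the second of its 2 probes. The Cyp4f5 probe with the higher mean log2 signal gave 14.2, 32.4, 25.6 and 10.8. Though never marked, it exceeded the 95th percentile of negative control spots on all 4 arrays. On replicates 1 and 4 it also exceeded the dimmest spike-in by 3 SD. By the flag, detection within the Cyp4f group thus ran from all arrays for Cyp4f6 to none for Cyp4f1, Cyp4f4 and Cyp4f5.

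The remaining genes are described by the ranges of their brightest probes. The 20 genes detected on replicates 2 and 3 only lay between 3.09 and 17.0 on replicate 1, between 113.5 and 1004 on replicate 2, between 75.4 and 256.1 on replicate 3 and between 2.80 and 22.2 on replicate 4. The flag that chose these genes asks for more signal on replicates 2 and 3, so the gap between the arrays follows from the choice. The 16 genes detected on replicate 2 alone had medians of 3.94, 271, 32.2 and 4.04 on replicates 1 to 4. The 7 genes detected nowhere had medians of 3.48, 75.3, 14.1 and 3.43, and Cyp2b12 was at the level of negative control spots on every array, at 3.16, 23.3, 12.1 and 2.88.

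These signals can be set beside control spots of the same array. All 20 genes called on replicates 2 and 3 only exceeded the 95th percentile of negative control spots on both of those arrays, which was 24.3 and 17.6 and lay below the signals at which the flag was set. On the other hand, 0 of the 20 exceeded the dimmest spike-in probe by 3 SD on replicate 2 or 3, and 5 and 9 of them exceeded its mean, which was 537 and 109. The same spike-in probe read 3.83 and 3.92 on replicates 1 and 4, where it was marked on no spot. It had been chosen as the dimmest on those arrays. The 6 genes detected throughout exceeded that threshold 6 of 6 times on replicates 1 and 4, 4 times on replicate 2 and 3 times on replicate 3. What part the array has in the signals on replicates 2 and 3 was not tested.

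**Figure D3:**
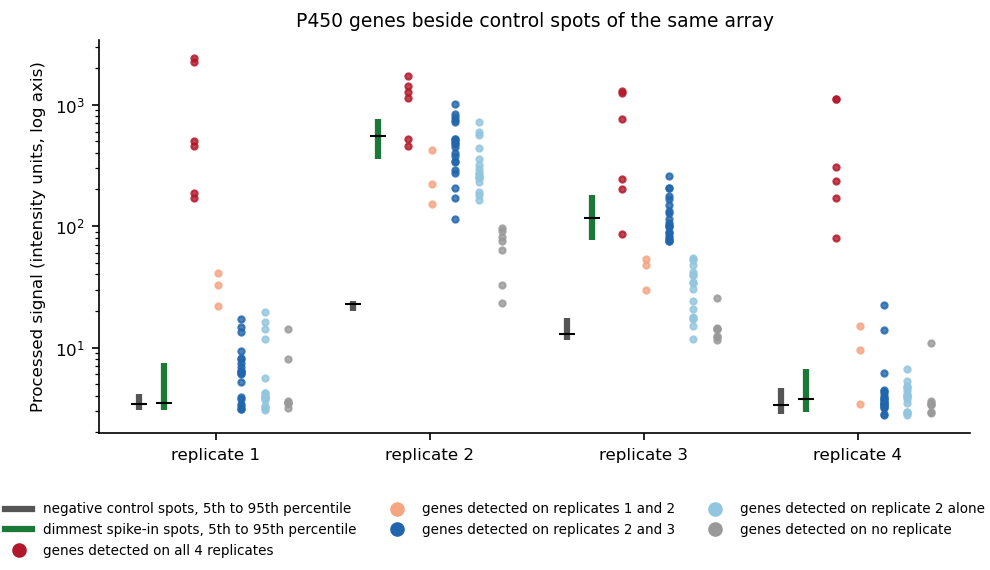
Processed signal (intensity units, log axis) of the brightest probe of each P450 gene on replicates 1 to 4. Colours give the arrays on which the gene was detected. Bars (5th to 95th percentile) and ticks (median) show negative control spots and the spike-in dimmest on replicates 1 and 4. On replicates 2 and 3 the genes detected there only overlap the spike-in bar, which itself lies with the negative controls on replicates 1 and 4.

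The order of P450 probes by signal was alike within the pairs of arrays. Over the 67 probes Spearman's rho was 0.78 for the pair of replicates 1 and 4 and 0.72 for the pair of 2 and 3, but 0.41 for 1 and 2. Over the 53 probes marked on neither replicate 1 nor 4 it was 0.60 for replicates 1 and 4, 0.65 for replicates 2 and 3 and 0.29 for replicates 1 and 2. Over the 10277 named probes marked on neither, it was 0.55, 0.77 and 0.28 for the same pairs. The likeness within pairs was thus not particular to P450 probes. The points share the slide and the sequence of each probe, and probes of 1 gene or of close copies are not independent.

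Many P450 genes lie in clusters of copies, and detection on replicates 1 and 4 is given for each, where it was 11.5% over the P450 genes and 46.0% over all genes. Genes of the rule were joined where at most 20 entries of the RefSeq order lay between them. In the cluster on chromosome 1 that runs from Cyp2s1 to Cyp2t1, and holds the Cyp2a and Cyp2b genes, 0 of 12 measured genes were detected on both arrays, and 7 were detected on replicates 2 and 3 only (27.8% of all genes). The Cyp2c cluster on the same chromosome had 1 of 7, Cyp2c7. The chromosome 5 cluster of Cyp4x1, Cyp4a and Cyp4b1 had 2 of 6, Cyp4a8 and Cyp4b1, and the Cyp2j genes had 0 of 3. On chromosome 7 the Cyp4f group had 1 of 6 and the Cyp2d group 2 of 5.

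Promoter windows, taken as 250 bases before to 50 after the annotated start in RefSeq (GRCr8), were matched for 45 of the 52 genes. Their GC content had a median of 47.7%, against 57.5% over the 13508 measured genes with a window. The CpG dinucleotide was at a median of 0.16 of the number its bases predict, against 0.64. For the 6 genes detected on replicates 1 and 4 this median was 0.14, while over all genes detected there it was 0.79. The P450 genes detected on every array thus had windows about as poor in CpG as the P450 genes that were not, at 0.16 over 39 genes. The highest ratio was 0.70, that of Cyp1b1, and among the 6 detected genes it was 0.51, that of Cyp4f6.

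**Figure D4:**
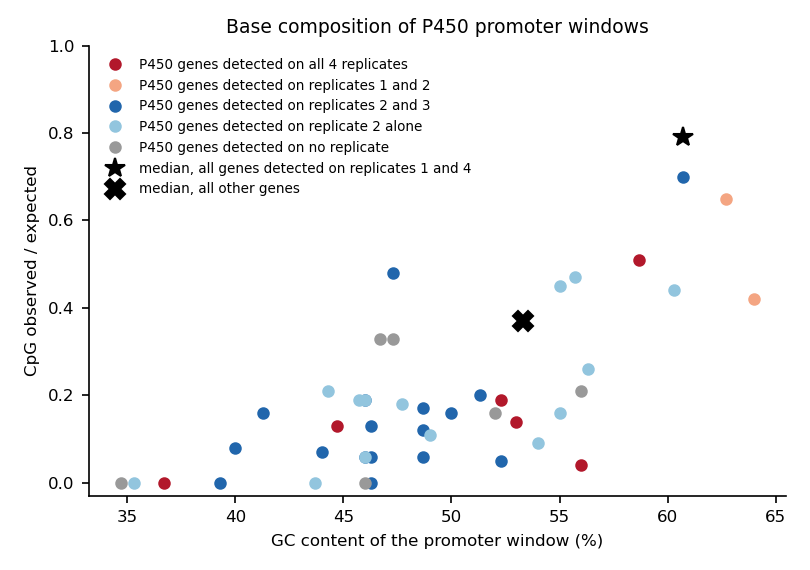
CpG observed over expected against GC content (%) of the promoter windows of 45 P450 genes, coloured by the arrays on which each gene was detected, with the medians of all genes detected on replicates 1 and 4 (star) and of all others (cross). All 45 P450 genes lie below the star at 0.79, and the genes detected on all 4 replicates are spread among the rest.

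The letters TATAAA, searched on the gene's strand, occurred in 10 of 45 P450 windows (22.2%), against 8.22% of the windows of all measured genes and 8.80% of the 33469 windows of the table. The core of the xenobiotic response element, GCGTG, searched on both strands, occurred in 9 of 45 (20.0%), against 39.7% of measured genes and 29.7% of the table. These motifs cannot overlap each other. GCGTG holds a CpG, so its share moves with the base composition given above. Cyp1a1 had no matched window and was not searched, and bases more than 250 before a start were searched for no gene. Cyp1b1, a target of the aryl hydrocarbon receptor, and Cyp4f6, detected on every array, are shown because each has 1 match on each strand. They were chosen after their values were seen. Capitals mark GCGTG, or CACGC where the match is on the other strand, in the 250 bases before the start (RefSeq, GRCr8, 5′ to 3′ along the gene). The stretch of Cyp1b1 is chr6:21094315-21094564 on the plus strand, and that of Cyp4f6 is chr7:12708379-12708628 on the minus strand.
Cyp1b1: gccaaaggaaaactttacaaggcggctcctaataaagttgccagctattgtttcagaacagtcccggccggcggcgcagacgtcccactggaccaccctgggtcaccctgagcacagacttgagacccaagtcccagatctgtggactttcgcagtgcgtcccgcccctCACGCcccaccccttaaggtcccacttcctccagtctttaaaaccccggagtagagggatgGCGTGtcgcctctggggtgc
Cyp4f6: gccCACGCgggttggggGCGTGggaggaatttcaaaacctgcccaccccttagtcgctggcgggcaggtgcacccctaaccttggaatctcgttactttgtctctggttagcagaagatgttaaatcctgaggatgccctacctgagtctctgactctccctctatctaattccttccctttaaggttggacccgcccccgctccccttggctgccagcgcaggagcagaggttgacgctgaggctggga
The 2 genes shown differed in detection, Cyp4f6 on all 4 arrays and Cyp1b1 on replicates 2 and 3. The window of Cyp2t1, detected on replicate 2 alone, also held 2 matches, whose strands are not given here. Of the 6 genes detected throughout, Cyp4f6 was the only one whose window held GCGTG, and Cyp2c7 the only one whose window held TATAAA. A match describes the letters and not a bound site.

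Genes that serve P450 enzymes were mostly detected. Of 15 genes for electron transfer and for haem synthesis and breakdown, 14 were detected on replicates 1 and 4 and 13 on all 4 arrays, where 46.0% and 42.5% of all genes were. Por, the reductase on which the microsomal enzymes depend, gave 1004, 1775, 826.5 and 530.8 on replicates 1 to 4. Cyb5a, which can pass on an electron as well, gave 4629, 3455, 1844 and 2463, and Alas1, which starts haem synthesis, gave 11140, 8268, 5668 and 6533. Cpox, a later enzyme of that pathway, was the exception at 10.3, 162.4, 16.9 and 4.78.

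Regulators of P450 genes were detected on replicates 1 and 4 in 6 of 13 cases, near the 46.0% of all genes. They were Arnt, Nr1i2, Pparg, Rxra, Nr1h3 and Nfe2l2, and the same 6 were detected on all arrays. The brightest Arnt probe gave 8.23, 786.5, 249.1 and 5.07 and was detected on replicates 2 and 3 alone. Its call on replicates 1 and 4 thus came through another probe. Pparg, a lipid-sensing receptor of alveolar macrophages, gave 7599, 4216, 3453 and 3888. Nr1i2, the pregnane X receptor that governs the Cyp3a genes, gave 70.8, 530.8, 84.6 and 26.7. The aryl hydrocarbon receptor gene Ahr gave 3.40, 334.0, 83.8 and 3.19 and was detected on replicates 2 and 3 only, as were 27.8% of all genes. Ppara, Nr1i3 and Hnf4a, which act on P450 genes in liver, were detected on neither replicate 1 nor 4.

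Markers of the cell types best known for P450 enzymes were read in the same way. On replicates 1 and 4 both, 0 of 10 hepatocyte markers and 0 of 12 markers of club and alveolar epithelial cells were detected. Of all genes, 46.0% were. On replicate 2 the counts were 10 of 10 and 11 of 12, where 91.6% of all genes were detected, and on replicate 3 they were 9 of 10 and 10 of 12, where 75.5% were. Albumin (Alb) gave 3.47, 538.1, 91.5 and 3.43, and the club cell secretory protein Scgb1a1 gave 4.26, 161.5, 18.0 and 4.90. Both were detected on replicate 2, and Alb on replicate 3 as well.

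**Figure D5:**
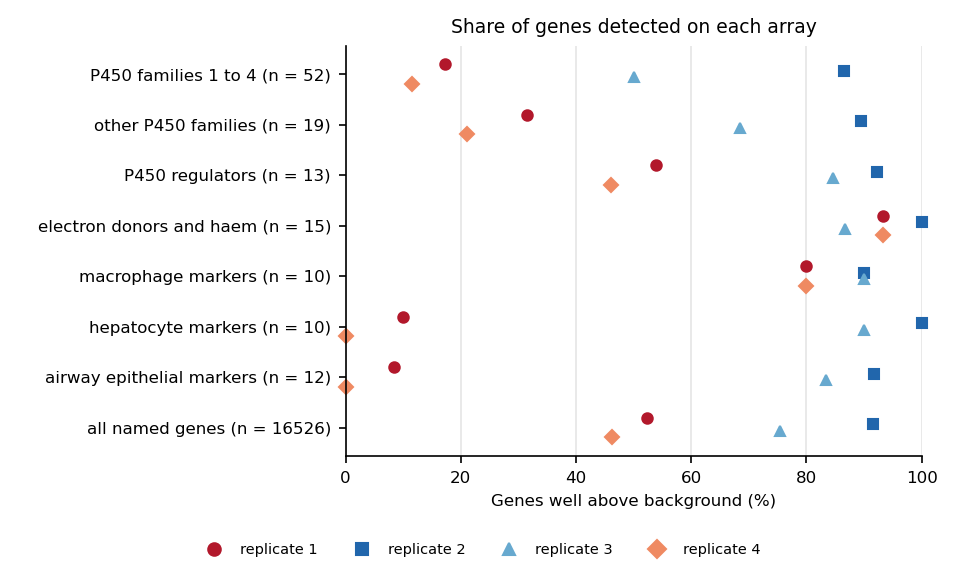
Share of genes well above background (%) on replicates 1 to 4 for the P450 genes of families 1 to 4, for lists of partner genes and cell type markers, and for all 16526 named genes. On replicates 1 and 4 the P450 genes lie at 17.3% and 11.5%, near hepatocyte and epithelial markers and below all named genes at 52.3% and 46.3%.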

How the data were processed

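RNA of 4 samples of 1 group was read on 1-colour Agilent arrays. The intensity values were deposited as background-subtracted and detrended by the scanner's software, per the file headers, where no scaling between arrays is recorded. The submitters' processing notes name it as Feature Extraction 11.0.1.1. The array's own genome build is older, and none of its coordinates were used. The deposited value table equals the median pixel intensity on all 62976 spots.

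Control spots and outlier-marked spots were left out, and the spots of a probe were averaged as log2 signal, from which the 75th percentile of the array was subtracted. Detection uses the deposited well-above-background flag (coded 0 or 1), set on at least 0.5 of a probe's spots. Of 4 spot rules tried, that one was taken after seeing the results because it gives the counts of an earlier analysis of these data; the P450 counts are the same under each. Levels are those of the gene's brightest probe, by mean log2 signal over the arrays. Probes were named through accession and the RefSeq table (GRCr8).

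With 1 group there was no test. The genes named are those detected on replicates 1 and 4 and a set of 26 members of known role, of which 24 were measured; others are said to be chosen after their values were seen. The members, lists and rules were chosen with earlier results of these data known. Cyp2d2, Cyp2d3, Cyp2d4 and Cyp2b12 were named after their values were seen. Protein sequences were not used here, and values of 1 listed regulator are not reported here. The counting was tested on simulated data. Tools were Python 3.11.15, pandas 2.3.3, biopython 1.88 and, for quantile normalization and normexp (offset 50), limma 3.58.1. Alternatives are in the closing section. Depth does not apply to arrays, and 4 arrays limit the precision.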

Additional observations from a re-analysis of the deposited data

How the results depend on the processing

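The number of P450 genes detected depended on the detection rule. With the scanner's positive-and-significant flag, the counts were 19 on replicates 1 and 4, 19 on all 4 replicates, 11 on replicates 2 and 3 only and 1 on none. With the 95th percentile of negative control spots they were 16, 14, 11 and 1, and with 3 SD above the dimmest spike-in probe 11, 3, 0 and 34. If every probe of a gene had to be detected, 13 genes were detected nowhere and 4 on replicates 1 and 4. Under each of these rules the share of P450 genes on replicates 1 and 4 (36.5%, 30.8%, 21.2% and 7.69%) was below that of all genes (61.3%, 60.7%, 51.9% and 40.5%). On replicates 2 and 3 only (main rule 38.5% against 27.8%) the positive-and-significant flag gave 21.2% against 17.1%. Negative controls gave 21.2% against 18.6%, the spike-in 0.0% against 0.115% and every probe 32.7% against 25.7%. On none (main rule 13.5% against 6.37%) the flag gave 1.92% against 1.17% and negative controls 1.92% against 1.33%. Every probe gave 25.0% against 9.9%, and the spike-in also a higher P450 share. Both gaps thus depended on the rule. Leaving out each replicate gave 6 to 9 genes on replicates 1 and 4, 6 to 6 on all, 20 to 36 on replicates 2 and 3 only (36 without replicate 3) and 7 to 23 on none (23 without replicate 2). The 9 without replicate 4 add Cyp2d4, Cyp2s1 and Cyp4f17. The brightest probe alone, kept outlier spots, protein-coding genes alone and, added after seeing the data, 3 other rules for repeated spots left the 4 counts at 6, 6, 20 and 7. The median absolute difference between replicates 1 and 4 was 0.50 with spike-in scaling, against 0.14. Of the levels of the 6 genes, 13 of 42 values under other settings moved by more than 1 SD, 12 of them with scaling on detected probes or on spike-ins, which move every level alike, and 1 for Cyp4a8 with the mean of its probes. None of the 24 values without 1 replicate did, which was bound to hold and shows nothing about stability. Leaving out 1 of 4 values cannot move their mean by 1 SD. No paired analysis was possible because there is 1 group. Where replicates 2 and 3 mark the dimmest spike-in, the flag sets no lower limit comparable with that of replicates 1 and 4.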

Other observations

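P450 genes outside families 1 to 4 were read from a list of 21, of which 19 were measured. On replicates 1 and 4, 4 of 19 were detected, against 46.0% of all genes, and the same 4 were detected on all arrays. Tbxas1, the thromboxane synthase of platelets and macrophages, gave 8277, 4965, 4646 and 4817 intensity units on replicates 1 to 4, at a level of 5.06 ± 1.98 (SD, n = 4). Cyp51, which removes a methyl group in cholesterol synthesis, gave 2594, 1918, 881.2 and 1389, and Cyp27a1, which hydroxylates the cholesterol side chain, gave 438.4, 772.7, 262.4 and 112.9. Cyp20a1, an enzyme of unsettled function, gave 787.6, 1064, 192.2 and 240.4. All 4 were above background on every array, and replicate 1 was highest for Tbxas1 and Cyp51 and replicate 2 for the other two.

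The remaining 15 included 8 detected on replicates 2 and 3 only, which are 8 of the 19, against 27.8% of all genes. Cyp27b1, which completes the activation of vitamin D and is known from stimulated macrophages, gave 21.3, 196.2, 67.7 and 10.7 and was detected on replicates 1 to 3. Cyp7a1, the rate-limiting enzyme of bile acid synthesis in liver, gave 3.43, 21.1, 12.2 and 3.14 and was detected on no array.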
